A study of Mus musculus with 36 samples.

Results

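The comparison described here set mouse cortical neuron cultures given homocysteic acid (HCA) together with the higher dose of sodium selenite against cultures given HCA alone. It rests on 12 of the 36 libraries of the study, 6 in each group, taken by their treatment labels, and each library of one group had a partner from the same culture batch in the other. It asked whether selenium alters the transcript state that HCA produces. The remaining 24 libraries were untreated cultures (control), selenite 0.1, selenite 1 and HCA with selenite 0.1, 6 of each. The sample labels give selenite in mM and the series text in micromolar, so the doses are written without a unit.

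All groups were primary cortical cultures from E15 pups of CD1 mice, an outbred strain, that had been plated for 24 h and were then treated for 6 h. The control group received neither agent, the HCA groups received HCA at 5 mM, and the selenite groups received sodium selenite at the dose in their name. The labels give no sex, number of pups per batch or measure of cell death. The batches are numbered 1 to 6 in the labels and each holds 1 library of every group. The batch was a block in the fit. The p-values of rows therefore refer to the spread left between libraries after group and batch are accounted for, estimated over all 36 libraries. HCA is homocysteic acid in the sample labels but is described as an inhibitor of ferroptosis in the series text.

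Homocysteic acid is an analogue of glutamate. It is known to compete with cystine for the exchanger formed by Slc7a11 and Slc3a2, so that cysteine and then glutathione run short, and lipid peroxides that the selenoprotein Gpx4 would remove can accumulate until the cell dies by ferroptosis. A shortage of amino acids is also known to raise translation of the transcription factor Atf4, whose targets include aminoacyl-tRNA synthetases and amino acid transporters, and glutamate receptor agonists are known to induce immediate early genes in neurons. Selenite supplies selenium for the selenocysteine of Gpx4 and the other selenoproteins.

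The names of genes in the text are inferred. Each row of the deposited table appeared to hold the transcripts 1 place before those of its own identifier when transcripts are sorted by identifier. At that shift the row levels separated coding transcripts other than odorant and pheromone receptors from the rest better than at the other 6 shifts tried, in 8 of 8 stretches of the identifier range, with areas under the curve from 0.654 to 0.722 against 0.427 to 0.615. Rows given to the same gene (479 pairs of rows with a mean of at least 100 counts) had a median correlation of 0.167 over the 36 libraries after each library was centred on its median, against -0.0257 to 0.0978 at the other shifts. Without that centring the correlation was 0.888 against 0.889 to 0.911, so the measure was highest at this shift only with centring, which was added after the value without it was seen. No such pair exists at a shift of 0. A gene is named only where all coding transcripts so assigned to a row came from that gene, and the symbol of the deposited identifier follows it in parentheses. Such a row often holds 1 transcript of several, so a value is that of the row and may not stand for the whole gene.

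The 12 libraries held 35.5 to 53.5 M estimated counts. Rows of ribosomal RNA type took from 2.73% to 79.7% of the counts in HCA libraries, with a median of 47.0%, and from 1.71% to 66.9% with HCA and selenite 1, with a median of 37.8%. The mean difference was -12.3 percentage points (two-sided exact permutation within batches, p = 0.469, n = 6 pairs, lower in 5 of 6 batches), and it was -1.03 without batch 6 and -23.9 without batch 2. The groups overlapped over nearly their whole range, and counts left for all other rows ran from 8.59 to 52.6 M. The neuronal tubulin Tubb3 (Tubb4a) lay between 668 and 1277 counts per 1000000 (CPM) in all 12 libraries. The summed level of 13 neuron marker rows, most of it Tubb3, lay between 866 and 1395 CPM. The sum was 17.9 to 54.4 CPM for 7 astrocyte rows and 4.92 to 16.7 CPM for 5 microglia and macrophage rows. Levels are not comparable between genes, so these sums give no proportion of cell types. Endothelial and mural markers differed most between batches, with a sum over 4 rows of 10.8 to 249 CPM. In bulk RNA, fewer cells of a type and less RNA per cell cannot be told apart.

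**Figure D1:**
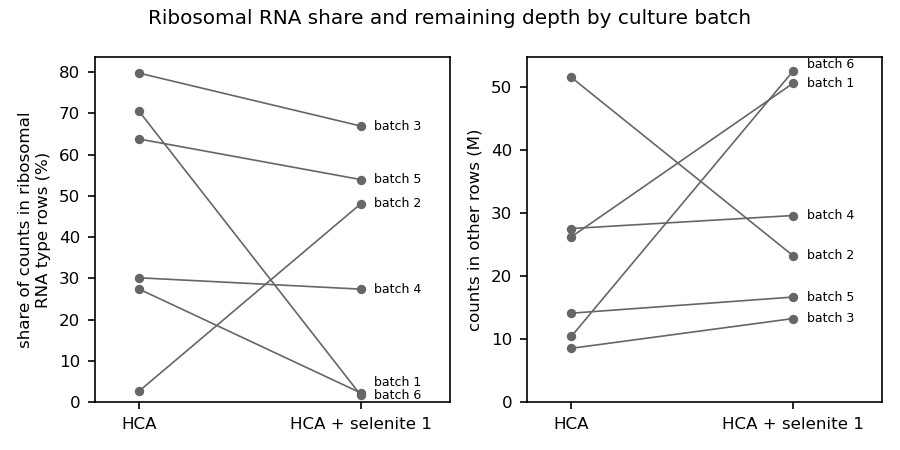
Share of estimated counts in rows of ribosomal RNA type, in percent (left), and counts in all other rows, in M (right), for the 6 HCA libraries and the 6 libraries of HCA with selenite 1; each line joins the 2 libraries of a culture batch. The share was lower with selenite in batches 1 and 3 to 6 and higher in batch 2, and the groups overlapped.

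After 6 h, adding selenite 1 to HCA changed no row past the threshold. With edgeR's quasi-likelihood test, 0 of 25588 rows (0%) had a Benjamini-Hochberg adjusted p under 0.05, and the smallest unadjusted p was 0.000688. At an unadjusted p under 0.05 there were 285 rows (1.11%), 176 higher (0.688%) and 109 lower (0.426%) with selenite, and the median log2 difference over all rows was 0.03. Of the 285 rows, 197 had a mean under 1 CPM over the 36 libraries. Limma voom called 0 rows (910 at unadjusted p under 0.05, 3.56%), as did its form with library weights (1420, 5.55%) and edgeR on the 12 libraries alone (819 of 22669 rows, 3.61%). An exact test with no changed row would pass more than 1.11% of rows at that p. The p-values of the main fit therefore ran high, and 0 rows past its threshold does not show that no row changed.

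DESeq2 called 8 rows, 3 higher (0.0117%) and 5 lower (0.0195%). Each was at 0 in all 6 libraries of 1 group and above 0 in 1 to 3 libraries of the other, where it reached at most 97 counts. The only ones among them that could be named were those of the G protein subunit Gng7 (Gm15576) and the tetraspanin Tspan12 (Gm7746). Gng7 was at 0 in every library of HCA with selenite 1 and in 4 of 6 HCA libraries, and reached 97 counts in another. In edgeR Gng7 had an unadjusted p of 0.0148.

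The precision was enough to bound large changes for rows of moderate level. Among 7753 rows of at least 5 CPM, the 95% interval of the difference lay within -1 and 1 on the log2 scale for 7083 (91.4%), with a median width to either side of 0.41. Rows under 1 CPM had a median width to either side of 1.37.

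The rows that answer to HCA were taken from libraries outside the comparison, HCA with selenite 0.1 against selenite 0.1. There 54 rows passed the threshold (0.211% of those tested), 48 higher (0.188%) and 6 lower, and the 48 had a median log2 rise of 1.14. In the 12 libraries compared here these 48 rows had a median difference of 0.00 between HCA with selenite 1 and HCA, from -0.38 to 0.35, with 23 above 0 and 25 below. At an unadjusted p under 0.05 there were 0 of the 48 in either direction. The share of all rows was 1.11%, so a count of 0 among 48 is near that share. The 95% interval of every one of the 48 left out a full reversal of its rise, and that of 42 left out a reversal of 50%. The rise meant here is the one in selenite 0.1 cultures, by which the rows were picked. Values picked by a threshold tend to run high, which makes a reversal easier to leave out, so these counts may be too high. The 6 lower rows had a median of 0.02, from -0.02 to 0.33. Among the libraries that picked these rows, selenite 0.1 of batch 5 had 88.6% of its counts in ribosomal rows and 4.92 M in all others. All the libraries that picked them held selenite 0.1. Rows whose HCA rise is lowered by selenite could therefore be missing from the 48, which favours small differences in this set.

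The 48 rows had a median difference of 1.11 for HCA against control and of 0.90 for HCA with selenite 1 against selenite 1. The first of these shares its HCA libraries, and the second its HCA with selenite 1 libraries, with the comparison made here. Control libraries had 45.9% to 87.9% of their counts in ribosomal rows and 6.87 to 25.5 M in all others. The difference between the effects, tested as an interaction, had a median of -0.10 over the 48 rows, the same as the median of -0.10 over all rows, and 1 of the 48 had an unadjusted p under 0.05. Over all rows, 0 of 25588 (0%) passed the interaction in edgeR and 722 (2.82%) had an unadjusted p under 0.05. DESeq2 called 24 rows, voom 1 and voom with library weights 2.

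Genes of amino acid supply and charging that HCA raises are described first. Cars, the cysteinyl-tRNA synthetase (Cd164l2, chr7:143557230-143600090, minus strand, GRCm38), had a lowest, median and highest level of 27.0, 31.4 and 35.2 CPM in HCA libraries and of 29.0, 30.5 and 32.6 CPM with selenite 1. The HCA range enclosed the range with selenite. The log2 difference was -0.02 ± 0.12 (SE, n = 6 and 6, 95% interval -0.28 to 0.23, edgeR unadjusted p = 0.870), and Cars was higher in 3 of 6 batches. In control libraries it had a median of 11.6 CPM and at most 16.2. HCA raised it by 1.45 ± 0.13 without selenite (edgeR adjusted p = 7.1e-08) and by 1.20 ± 0.13 in cultures given selenite 1 (adjusted p = 7.8e-07).

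Aars, the alanyl-tRNA synthetase (Cdh15, chr8:111033144-111057664, plus strand), ran from 137 to 171 CPM with a median of 150 in HCA libraries, and from 135 to 172 CPM with a median of 148 when selenite was added. The ranges were nearly the same, and the difference was 0.00 ± 0.15 (95% interval -0.31 to 0.31). Over the 10 aminoacyl-tRNA synthetase rows tested, of 20 genes, the median was 0.01, from -0.17 for the isoleucyl enzyme Iars (Mnd1) to 0.66 ± 0.74 for the glutaminyl enzyme Qars (Gm6858), a row of low level. Lars (Grxcr2), Hars (Zmat2) and Mars (Tfap2d), which charge leucine, histidine and methionine, were at 0.03 ± 0.19, -0.09 ± 0.13 and 0.06 ± 0.42. For HCA against control and for HCA with selenite 1 against selenite 1, Cars and Aars were the 2 of 10 that passed, both higher, against 0.258% and 0.164% of all rows.

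Slc3a2, the heavy chain shared by the cystine exchanger and several other amino acid transporters (Nxf1, chr19:8706882-8723369, minus strand), had 46.6, 55.4 and 67.1 CPM as its lowest, median and highest level with HCA, and 54.5, 58.0 and 64 CPM with HCA and selenite 1. The selenite range lay within that of HCA, at a difference of 0.07 ± 0.12 (95% interval -0.17 to 0.31). The row also holds a transcript of a small RNA gene. Eif4ebp1, a repressor of cap-dependent translation (Chrna6, chr8:27260329-27276674, plus strand), ran from 7.59 to 17.5 CPM around a median of 11.0 with HCA and from 7.52 to 15.1 CPM around 12.6 with selenite added. The lowest libraries of the groups were nearly equal, and the difference was 0.02 ± 0.21 (95% interval -0.41 to 0.44).

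Stc2, a secreted stanniocalcin (Vmn2r81, chr11:31357307-31370074, minus strand), had 1.56, 2.45 and 3.04 CPM in HCA libraries and 2.26, 2.72 and 2.96 CPM with selenite 1. Its lowest HCA libraries lay below all those with selenite and its highest above, and the difference was 0.20 ± 0.25 (95% interval -0.31 to 0.70, higher in 4 of 6 batches). Shmt2, the mitochondrial serine hydroxymethyltransferase (Inhbc, chr10:127517123-127522444, minus strand), ran from 35 to 49.3 CPM with a median of 44.4, and with selenite from 32.9 to 58.6 CPM with a median of 37.5. It was lower in 5 of 6 batches, at a difference of -0.07 ± 0.20. The HCA effect on Shmt2 was 1.09 ± 0.21 without selenite (edgeR adjusted p = 0.00666) and 0.67 ± 0.20 with it (adjusted p = 0.359), and the difference between those effects was -0.42 ± 0.29 (interaction unadjusted p = 0.150). Gpt2, a mitochondrial alanine aminotransferase (Dnaja2), was at 0.07 ± 0.13, and Aldh18a1, an enzyme of proline synthesis (Tctn3), at 0.09 ± 0.20.

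**Figure D2:**
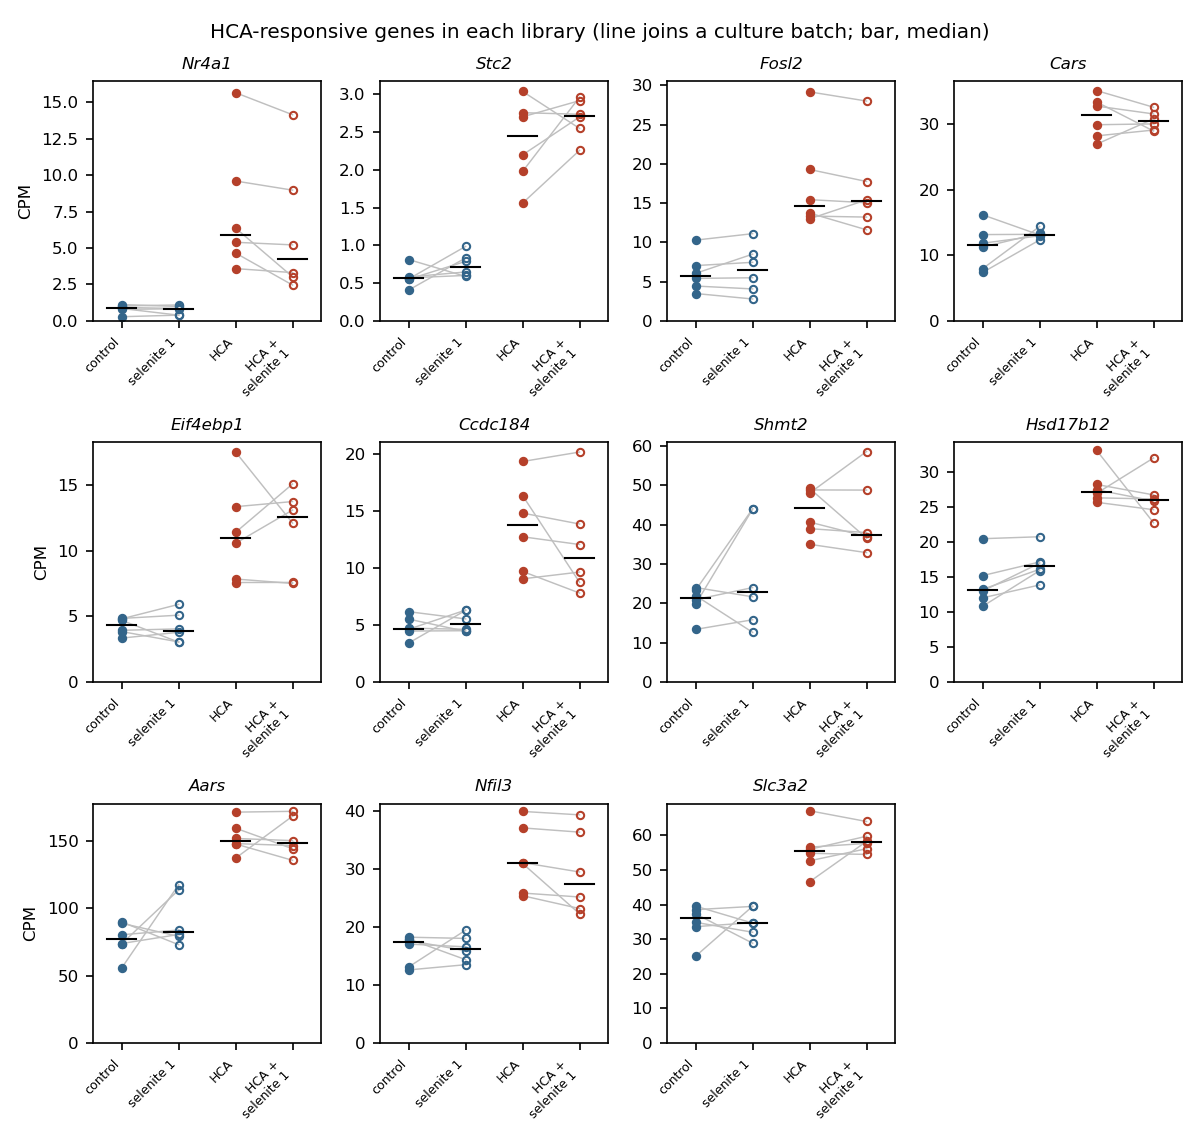
CPM of 11 of the 12 named genes that responded to HCA with lowest p in selenite 0.1 cultures, in control, selenite 1, HCA and HCA with selenite 1 libraries; each point is a library, grey lines join a culture batch and bars are medians of 6. For each gene the points of HCA and of HCA with selenite 1 overlap, as for Cars at 27.0 to 35.2 and 29.0 to 32.6 CPM.

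Taking the list of 40 genes of Atf4 and the integrated stress response as a whole, 15 were tested, 10 above 0 and 5 below, with a median of 0.05 and a range of -0.11 to 0.31. At an unadjusted p under 0.05 there were 0 members, against 1.11% of all rows. For HCA against control 6 of the 15 passed higher (0.258% of all rows did), with a list median of 0.85. For HCA with selenite 1 against selenite 1 the counts were also 6 of 15 (0.164% of all rows), with a median of 0.75. Atf5 (Cpsf2), a factor related to Atf4, was at 0.17 ± 0.23.

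Several central members of that response stand in rows that also hold coding transcripts of other genes, so that their values cannot be given to 1 gene. These rows were chosen after their response to HCA had been seen. The row (Rhobtb3) shared by Atf4, Npr2 and Pcsk1 had 88.5, 110 and 120 CPM as lowest, median and highest level with HCA and 95, 119 and 127 CPM with selenite 1, a difference of 0.10 ± 0.11 (95% interval -0.11 to 0.32). That of Asns, the asparagine synthetase, with Adipoq and Dap3 (Dlx6) had 64.9, 75.3 and 93.4 CPM against 74.0, 81.2 and 92.1 CPM, a difference of 0.13 ± 0.14 (95% interval -0.16 to 0.43). The ranges overlapped in both of these rows. Atf4 also stands in a row with Pdzd11, Pkp4 and Slc39a11 (Upp2), which was at 0.05 ± 0.27. For HCA against control that row was at 0.43 ± 0.28 (edgeR adjusted p = 0.698). Asns stands in 4 other tested rows, all shared with other genes. The one with Rhbdf2 and Tmem53 (Fbf1) had 0.405, 0.850 and 0.918 CPM with HCA and 1.12, 1.36 and 3.48 CPM with selenite 1. Its groups did not overlap, as in 0.0938% of all rows, and it was higher in 6 of 6 batches, at 1.03 ± 0.36 (95% interval 0.28 to 1.77, edgeR unadjusted p = 0.0084, adjusted p = 1), while its control libraries spanned 0.728 to 3.71 CPM and HCA against control was -1.03 ± 0.38. The rows with Adam33, Eif4g1 and Srpx (Srpx), with Asnsd1, Nrg1, Ociad1 and Tmc8 (Polg) and with Ifi27 and Lrch2 (March11) were at -0.09 ± 0.51, 0.21 ± 0.30 and 1.11 ± 0.76. Over all 86 rows that hold a member of the Atf4 list the median was 0.05. At an unadjusted p under 0.05 there were 1 higher and 1 lower (0.688% and 0.426% of all rows).

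The row of Slc7a5, the light chain of a leucine transporter, and Zfp637 (Slc19a3) was at 0.01 ± 0.13, that of the glutathione-degrading enzyme Chac1 and Zbtb20 (Atrn) at 0.08 ± 0.22, and that of the folate enzyme Mthfd2 and Tctex1d4 (Kit) at 0.16 ± 0.13. Another row of Mthfd2, with Agbl1 (Plk4) and a mean of 0.341 CPM, was at -0.18 ± 0.68. The rows of the gluconeogenic enzyme Pck2 were at -0.02 ± 0.20 with Impg1 (Trem1), 0.05 ± 0.21 with Ntrk2 and Vmn1r78 (Vmn1r52) and 0.48 ± 0.56 with Ap5m1 and Washc1 (Vmn1r220). Slc7a11, the light chain of the cystine exchanger itself, was held only in a row with Dag1 and Naa15 (Naa15), at 16.5, 30.4 and 48.5 CPM with HCA and 23.9, 36.7 and 54.0 CPM with selenite 1. That row was higher with selenite in 5 of 6 batches, at 0.43 ± 0.22 (95% interval -0.03 to 0.89, edgeR unadjusted p = 0.0631), and was at -0.05 for HCA against control.

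Genes of this response are known to be reached by Atf4 through a C/EBP-ATF element with the core TGATGNAA. It was searched on both strands in the 250 bases before the annotated start, in the RefSeq promoter table for GRCm38.p6, for the 12 genes of lowest p in the HCA response and 9 genes of shared rows, of which 18 were in the table. It was found in 1 of the 10 genes in the table that the HCA rule took, and in 4 of 8 that were picked by hand, most of them as known members of the Atf4 response, so the latter count is set by the choice. It was in 3.45% of all 32851 promoters and 3.91% of 27025 genes. Cars, Eif4ebp1 and Slc7a5 were not in the table. The windows are those of the genes with a match, with the match in capitals on the gene's strand, and a match is a description of the sequence only. Among them Aars has a row of its own that HCA raised, and the other 4 were tested only in rows shared with other genes. Starts are those of the RefSeq table and can differ from the GENCODE span, and the Aars window lies inside the GENCODE span given for that gene. The windows are chr8:111033710-111033757 (plus) for Aars, chr6:7693210-7693252 (minus) for Asns, chr2:119351029-119351076 (plus) for Chac1, chr14:55540143-55540190 (plus) for Pck2, and chr3:50443652-50443699 and chr3:50443633-50443680 (minus) for the 2 matches of Slc7a11.
Aars: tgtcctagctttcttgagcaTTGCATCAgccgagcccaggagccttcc
Asns: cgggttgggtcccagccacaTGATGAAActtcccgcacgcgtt
Chac1: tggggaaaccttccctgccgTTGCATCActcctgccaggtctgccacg
Pck2: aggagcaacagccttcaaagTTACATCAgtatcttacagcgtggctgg
Slc7a11, farther match: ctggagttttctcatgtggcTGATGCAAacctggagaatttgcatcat
Slc7a11, nearer match: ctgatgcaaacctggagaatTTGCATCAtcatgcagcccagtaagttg
Read from the start, the matches begin 112 bases upstream in Aars, 23 in Asns, 193 in Chac1, 103 in Pck2, and 66 and 47 in Slc7a11. With selenite 1 added to HCA, Aars was at 0.00 and the shared rows of the other 4 had the values given before, from -0.09 to 1.11, while Stc2 and Shmt2, in whose windows the core was not found, were at 0.20 and -0.07. The cyclic AMP element TGACGTCA, which reads the same on both strands and is known from immediate early genes, was in 0 of the 18 and in 1.55% of all promoters.

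Immediate early genes, which neurons induce on activity, included the lowest value among the 11 HCA-responsive genes described. Nr4a1, an orphan nuclear receptor (Krt88, chr15:101254269-101274795, plus strand), had 3.59, 5.88 and 15.6 CPM as lowest, median and highest level with HCA, and 2.46, 4.27 and 14.1 CPM with selenite 1. It was lower with selenite in 6 of 6 batches, and the groups overlapped. The falls were largest in batch 1, from 6.37 to 3.03 CPM, and batch 3, from 4.66 to 2.46 CPM. They were smaller in the other batches, as from 5.39 to 5.22 CPM in batch 6. The difference was -0.37 ± 0.34 (95% interval -1.08 to 0.33, edgeR unadjusted p = 0.286, adjusted p = 1). HCA raised Nr4a1 by 3.04 ± 0.41 without selenite and by 2.78 ± 0.38 with it.

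Nfil3, a leucine zipper repressor (C330011M18Rik, chr13:52967209-52981073, minus strand), ran from 25.4 to 39.9 CPM around 31.0 with HCA and from 22.3 to 39.3 CPM around 27.3 with selenite 1. It too was lower in 6 of 6 batches, by a small amount, at -0.13 ± 0.13 (95% interval -0.39 to 0.14, edgeR unadjusted p = 0.327). Its largest fall was in batch 1, from 30.9 to 22.3 CPM. Fosl2, a subunit of AP-1 (Rbks, chr5:32135801-32157842, plus strand), had medians of 14.6 and 15.2 CPM and a difference of -0.05 ± 0.24, and was lower in 5 of 6 batches.

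The row of Fos and Bfsp2 (Erg28) was at -0.06 ± 0.25, with medians of 8.21 CPM with HCA and 7.32 CPM with selenite added. Over the list of 35 activity genes, 19 were tested, 7 above 0 and 12 below, with a median of -0.08 and a range of -0.82 to 0.40. Of these members, 0 had an unadjusted p under 0.05, against 1.11% of all rows. The lowest was Egr4 (Lsmem1), a row near 0.1 CPM, at -0.82 ± 0.62. Jund (Gm9104), the AP-1 subunit, and the antiproliferative factor Btg2 (Tns3) were at -0.08 ± 0.21 and 0.01 ± 0.14. For HCA against control 5 of the 19 passed higher (0.258% of all rows did), with a median of 1.17, and for HCA with selenite 1 against selenite 1, 6 of the 19 (0.164% of all rows), with a median of 0.71.

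The other 2 HCA-responsive genes have no place in these lists. Ccdc184 (2210010C04Rik, chr15:98167158-98170134, plus strand) ran from 9.06 to 19.4 CPM around 13.8 with HCA and from 7.81 to 20.2 CPM around 10.9 with selenite 1. The difference was -0.20 ± 0.16 (95% interval -0.52 to 0.12, lower in 4 of 6 batches). Hsd17b12, a reductase of fatty acid elongation (Alkbh3os1, chr2:94032689-94157964, minus strand), ran from 25.7 to 33.2 CPM with HCA and from 22.8 to 32.1 CPM with selenite. It was lower in 5 of 6 batches, at -0.08 ± 0.16.

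**Figure D3:**
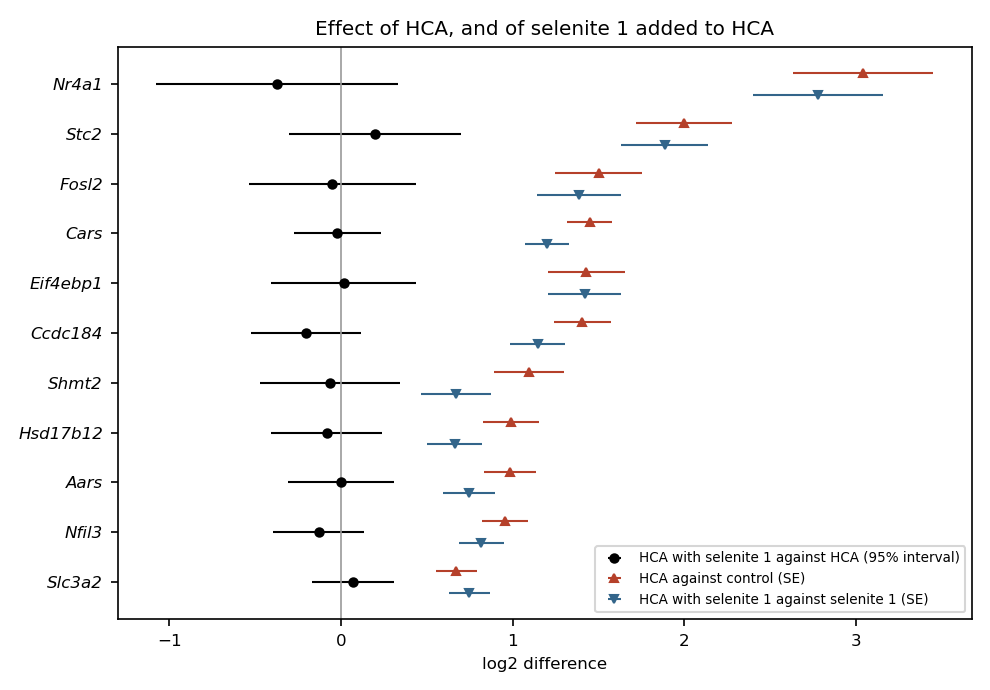
Log2 differences of the same 11 genes for HCA with selenite 1 against HCA (circles, 95% interval) beside HCA against control and HCA with selenite 1 against selenite 1 (triangles, SE), each from 6 and 6 libraries. All 11 intervals of the first comparison include 0, and the HCA effects lie between 0.66 and 3.04; the comparisons share libraries.

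Selenoproteins are the genes that selenium supply is known to serve, and 11 of 24 could be tested. Of these, 10 had a value below 0 and 1 above, with a median of -0.20 against 0.03 over all rows. That median is the value of Gpx3 (Gpx2), a row with a mean of 0.392 CPM. The list medians of single batches had an SD of 0.26, more than the size of the median. Of the 11, 0 had an unadjusted p under 0.05, against 1.11% of all rows. Over all 53 rows with any selenoprotein transcript, including rows shared with other genes, the median was -0.04, again with 0 at that p. The lowest, at -2.60 ± 1.84 and -1.07 ± 0.98, were the thioredoxin reductase Txnrd2 (Api5-ps) and the deiodinase Dio3 (Gm23741), rows under 0.3 CPM with libraries at 0 in either group.

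Selenof, a selenoprotein of the endoplasmic reticulum (Selenoo, chr3:144570304-144597680, plus strand), had 16.4, 26.3 and 34.8 CPM with HCA and 18.4, 22.9 and 25.9 CPM with selenite 1, so the higher values fell in HCA libraries. The difference was -0.22 ± 0.29 (95% interval -0.81 to 0.36), and it was lower in 5 of 6 batches. Selenoo, the mitochondrial selenoprotein that transfers AMP to proteins (Gm24966, chr15:89089084-89100340, plus strand), had 10.6, 19.1 and 23.1 CPM against 10.8, 14.3 and 25.5 CPM, at -0.12 ± 0.18. Sephs2, which makes the selenium donor for selenocysteine (Gpx1, chr7:127271879-127274055, minus strand), had medians of 15.6 and 15.7 CPM and a 95% interval of -0.37 to 0.25 around -0.06 ± 0.15. Selenoh, a nuclear selenoprotein (Gm15016, chr2:84669215-84670770, minus strand), was at -0.10 ± 0.24.

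**Figure D4:**
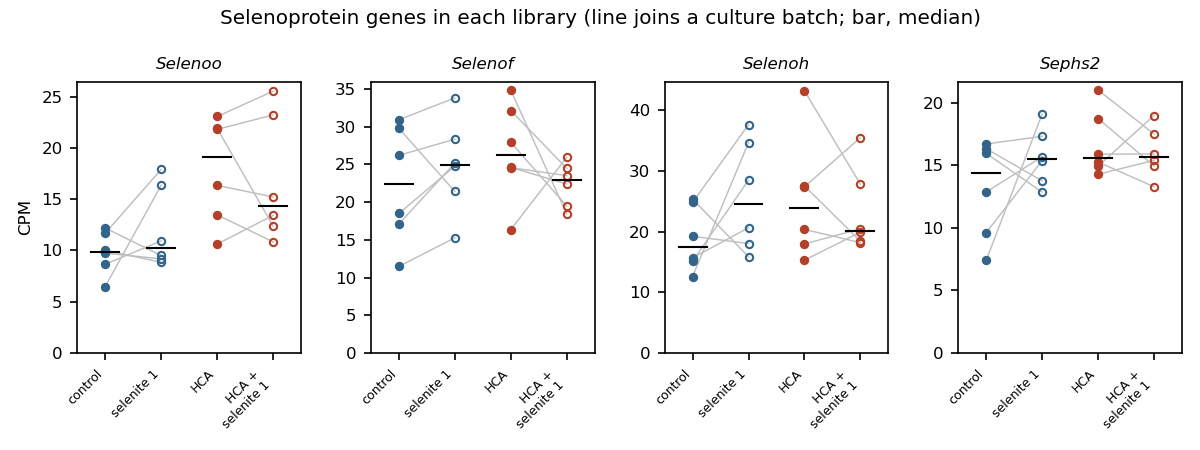
CPM of the selenoprotein genes Selenoo, Selenof, Selenoh and Sephs2 in control, selenite 1, HCA and HCA with selenite 1 libraries; each point is a library, grey lines join a culture batch and bars are medians of 6. The HCA and HCA with selenite 1 points overlap for each gene, with medians of 15.6 and 15.7 CPM for Sephs2.

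Gpx4, the peroxidase that clears peroxidized lipids, was at -0.25 ± 0.57 in the row that holds it alone (Dio3), which lay between 0.459 and 3.90 CPM with HCA. Its rows of higher level are shared. The one with Ank3, Ap2m1, Gapdhs and Usp17la (Ccser2) was at -0.04 ± 0.16 and that with Ccdc80 and Wdtc1 (Arhgap45) at -0.13 ± 0.22. The cytosolic peroxidase Gpx1 had a value of -0.27 ± 0.33 and the secreted Gpx3 of -0.20 ± 0.43. The 11 selenoprotein rows had a median of 0.45 for selenite 1 against control and of 0.39 for HCA against control. Over all rows these medians were 0.13 and 0.09. Of the 11 rows, 0 passed in either comparison (0% and 0.289% of all rows passed), and these comparisons share the control libraries.

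Of 14 genes of selenium handling, 7 were tested, with a median of -0.11 and a range of -0.28 to 0.17. Eefsec, the elongation factor that brings selenocysteine to the ribosome (Gm17065), was at -0.28 ± 0.24, the associated factor Trnau1ap (Taf12) at -0.15 ± 0.19 and the Sepp1 receptor Lrp8 (Ndc1) at -0.22 ± 0.28. Tfap2c (Gcnt7), a transcription factor known to act in the response of neurons to selenium, ranged from 0.131 to 5.04 CPM with HCA and from 0.751 to 6.59 CPM with selenite, at 0.11 ± 0.57. The spread between libraries was many times the difference. Without batch 4 the list median was 0.04 and on the 12 libraries alone 0.02, so its sign depends on the setting.

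Of 35 genes of glutathione synthesis and Nrf2 targets, 12 were tested, 3 above 0 and 9 below, with a median of -0.17. Of the 12, 0 had an unadjusted p under 0.05, against 1.11% of all rows. The ferritin heavy chain Fth1 (Fads2), which stores iron, had 59.8, 85.8 and 165 CPM with HCA and 58.2, 82.5 and 98.3 CPM with selenite 1. One HCA library lay far above the rest, and the difference was -0.20 ± 0.14 (95% interval -0.50 to 0.09, lower in 5 of 6 batches). Superoxide dismutase Sod1 (Krt5) was at -0.19 ± 0.17 and catalase Cat (Pamr1) at 0.17 ± 0.20. The glutathione transferases Gsta4 (Elovl5) and Gstm5 (Gstm3) were at -0.22 ± 0.21 and -0.17 ± 0.19.

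The 9 tested of 24 genes that protect from ferroptosis had a median of -0.17 and those 9 of 24 that promote or mark it 0.07. In the first list Gss (Gpr182), the glutathione synthetase, was at -0.17 ± 0.36, the lipid ligase Acsl3 (Defa-ps3) at 0.23 ± 0.38 and the coenzyme Q enzyme Coq2 (Slc10a6) at 0.05 ± 0.19. In the second, Lpcat3 (Grcc10), which puts polyunsaturated chains into phospholipids, had 2.39, 3.55 and 4.79 CPM with HCA and 1.91, 2.67 and 4.00 CPM with selenite 1, at -0.31 ± 0.19 (95% interval -0.69 to 0.07, lower in 5 of 6 batches). Por (Cyp2b13), a reductase linked to lipid peroxidation, was at -0.09 ± 0.16 and the iron importer Slc11a2 (Efhd1os) at 0.07 ± 0.22. With the symbols of the deposited identifiers in place of the shifted names, the medians of the protecting genes and of the glutathione list were both 0.12, and with every row that holds a member 0.05 and 0.01, so their sign depends on how rows are named.

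Heat shock and unfolded protein response genes had a median of 0.12 over 14 tested of 30, 10 above 0 and 4 below. One of them, the inducible chaperone Hspa1a (Gm16223, chr17:34969190-34972156, minus strand), had an unadjusted p under 0.05, as did 1.11% of all rows. It had 0.764, 1.19 and 1.98 CPM with HCA and 0.995, 1.73 and 2.38 CPM with HCA and selenite 1. It was higher in 6 of 6 batches while the groups overlapped, at 0.50 ± 0.23 (95% interval 0.03 to 0.96, edgeR unadjusted p = 0.0366, adjusted p = 1). Its value for selenite 1 against control was -0.51 ± 0.24 and the interaction 1.00 ± 0.33 (unadjusted p = 0.00469, adjusted p = 1). The constitutive chaperone Hspa8 (Hist3h2bb-ps) was at 0.15 ± 0.18, the disulfide isomerase Pdia6 (Prr12) at 0.09 ± 0.16 and Hyou1 (Kirrel3os), a chaperone of the endoplasmic reticulum, at 0.23 ± 0.21.

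Among the remaining lists, 10 of 24 cholesterol synthesis genes had a median of 0.14, with the synthase Hmgcs1 (Gm22253) at 0.04 ± 0.31. Genes of p53 and apoptosis had a median of 0.21 over 13 of 21, with the p53 targets Ccng1 (Fgf22) and Cdkn1a (Nus1) at 0.35 ± 0.25 and -0.03 ± 0.30. That median was -0.02 with the symbols of the deposited identifiers and 0.02 over every row that holds a member. Mitochondrially encoded genes had 0.03 over 12 of 13. In that list mt-Co1 (mt-Ts1), a subunit of cytochrome c oxidase, lay between 315 and 858 CPM with HCA and between 429 and 999 CPM with selenite, and was higher in 6 of 6 batches at 0.24 ± 0.17 (95% interval -0.11 to 0.59). Metallothioneins and zinc exporters had -0.21 over 6 of 9, with Mt3 (Mt2), the neuronal metallothionein, at -0.25 ± 0.23 and Mt2 (Mt1) at -0.20 ± 0.28. Their median turned to 0.01 with voom, 0.04 with voom and library weights, 0.03 without batch 3 and 0.003 without batch 6. Each of these lists had 0 members at an unadjusted p under 0.05, against 1.11% of all rows.

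**Figure D5:**
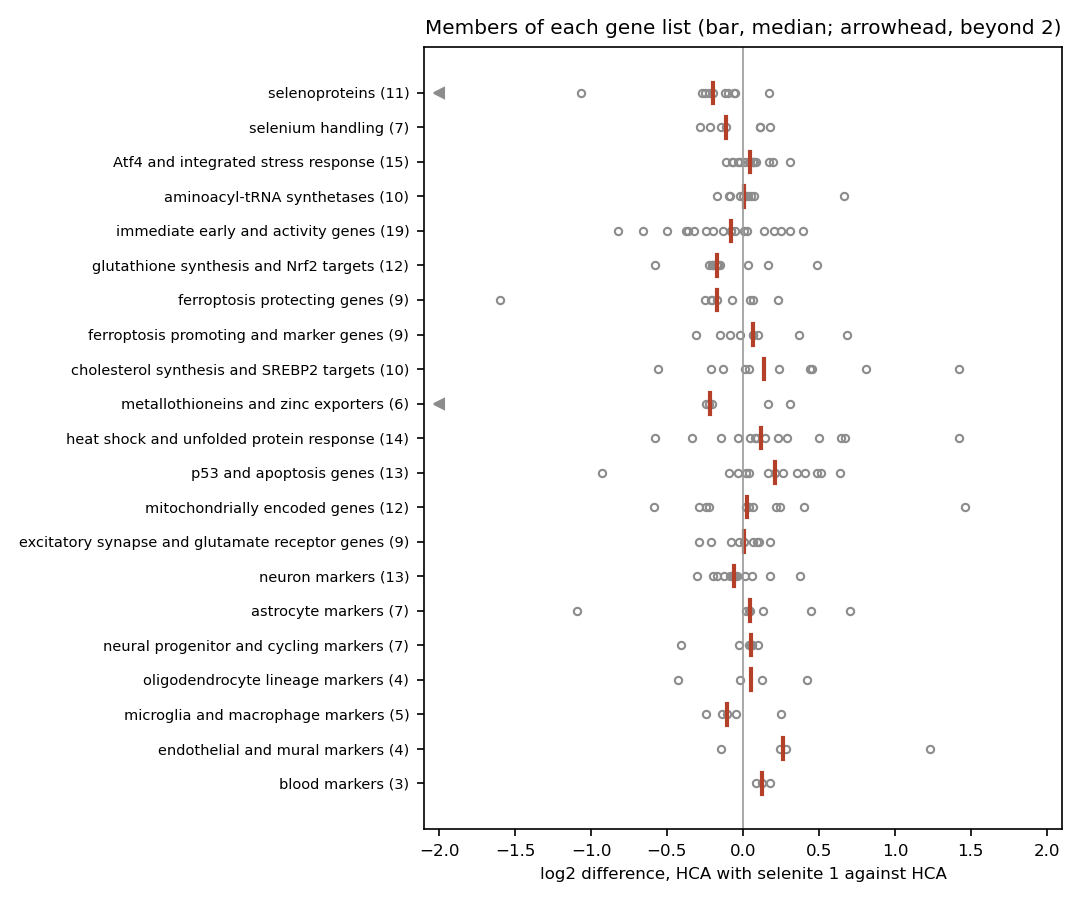
Log2 differences between HCA with selenite 1 and HCA (6 libraries each) for the tested members of 21 gene lists, with the number tested in parentheses; circles are genes, bars are list medians and arrowheads mark members beyond 2 in size. Medians lie between -0.21 and 0.26, and only those of selenoproteins and of heat shock and unfolded protein response genes kept their sign in all 20 settings run. Of all list members 1, Hspa1a, had an unadjusted p under 0.05, against 1.11% of all rows.

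Markers of the cell types a cortical culture can hold had medians from -0.11 to 0.26. Neuron markers had -0.06 over 13 of 22 genes, astrocyte markers 0.05 over 7 of 12, progenitor and cycling markers 0.05 over 7 of 15, oligodendrocyte lineage markers 0.05 over 4 of 10 and microglia and macrophage markers -0.11 over 5 of 12. Endothelial and mural markers had 0.26 over 4 of 14, with the collagen gene Col1a2 (Gng11) from 1.31 to 119 CPM with HCA and from 2.06 to 121 CPM with selenite, and blood markers 0.13 over 3 of 8. The endothelial and mural median was -0.12 without batch 1 and 0.02 without the batch block, and that of blood markers -0.13 without batch 3. Excitatory synapse genes had 0.01 over 9 of 24, with the NMDA receptor subunit Grin2b (Morc2b) at -0.03 ± 0.42 and the vesicle protein Syp (Gm7936) at -0.08 ± 0.16. At an unadjusted p under 0.05 there were 0 members in these 8 lists, against 1.11% of all rows.

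The named rows of lowest unadjusted p that went 1 way in at least 5 of 6 batches are given as descriptions, since no row passed the threshold. Of the 20, 10 in each direction, 12 had a mean of less than 1 CPM over the 36 libraries, and the groups did not overlap in 1, against 24 of all 25588 rows (0.0938%). That one was Abca9, a lipid transporter of the ABC family (Pcdhga12), at 0.0147 to 0.271 CPM with HCA and 0.308 to 0.564 CPM with selenite 1. Its log2 difference was 1.44 ± 0.59 (edgeR unadjusted p = 0.0213), while control libraries spanned 0.102 to 1.85 CPM and overlapped both groups.

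Among rows with higher values, Poglut1, which adds glucose to Notch receptors (Gpr12), had 1.75, 3.73 and 5.07 CPM with HCA and 4.13, 6.49 and 7.32 CPM with selenite 1, at 0.74 ± 0.31 (unadjusted p = 0.0218). The ETS factor Gabpa (Gm1070) was at 1.16 ± 0.47, Slc45a3 (Gm4307), a putative sugar transporter, at 0.70 ± 0.28 and Bglap3 (Bglap3), a gene of the osteocalcin cluster, at 1.13 ± 0.39, each in 6 of 6 batches. The cell adhesion gene Cntn1 (Ngfr), Acbd4 (Gm7336) and the retinol dehydrogenase Rdh12 (Arg2) were at 0 in 5 of 6 HCA libraries. The receptors Pear1 (Gm20416) and Vmn1r113 (Serpina3m) complete the 10, at 2.94 ± 1.02 and 1.46 ± 0.56.

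Among rows with lower values, Ankrd17, an ankyrin repeat protein (Olfr310), had 2.98, 4.25 and 7.99 CPM with HCA and 1.37, 2.23 and 3.20 CPM with selenite 1, at -0.94 ± 0.34 (unadjusted p = 0.0107, lower in 6 of 6 batches). The zinc finger gene Prr3 (Gm17152), the mitochondrial carrier Slc25a23 (BC031181) and Ube2s (Gm44895), a ubiquitin-conjugating enzyme of mitosis, were at -0.45 ± 0.17, -0.62 ± 0.26 and -0.92 ± 0.40. The carbonic anhydrases Car4 (Znhit3) and Car3 (Car2) were at -0.82 ± 0.35 and -2.41 ± 1.08. The sorting nexin Snx17 (Gm43268), Zfp799 (Gm21978), the polymerase subunit Rev3l (Cldn34a) and Gng7 were at or under 0.302 CPM in every library of HCA with selenite 1, and reached between 1.50 and 7.59 CPM in an HCA library.

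The lower dose was read in the same way, with the same HCA libraries, so the comparisons are not independent. HCA with selenite 0.1 against HCA gave 0 of 25588 rows (0%) in edgeR, 293 at an unadjusted p under 0.05 (1.15%), 0 with voom and 16 with DESeq2. Cars was at -0.04 with the lower dose and -0.02 with the higher, Nr4a1 at -0.15 and -0.37, and Stc2 at -0.12 and 0.20. The selenoprotein list had a median of -0.06 and -0.20, the Atf4 list -0.04 and 0.05. Between HCA with selenite 1 and HCA with selenite 0.1, edgeR called 0 rows (0%), with 283 at an unadjusted p under 0.05 (1.11%).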

How the data were processed

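RNA-seq libraries were made, per the labels' protocols, with Ribo-Zero Gold depletion and sequenced on an Illumina HiSeq. The submitters' processing notes name STAR, Salmon and GRCm38; the annotation release and filter are not given in the sources used here. Despite the TPM in its name, the authors' deposited table holds estimated counts per row for 36 libraries (34.3 to 56.9 M each). From 7.97% to 58.8% of a column's values were whole within 1e-06. They were rounded to whole numbers for the tests.

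Rows were named through transcript order in GENCODE vM21 with a shift of -1, which gave 9555 of 27288 rows and 7514 genes, and each gene was described through its row of highest mean count. Coordinates belong to the named gene (GRCm38), and promoter sequences are from RefSeq.

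The test was edgeR's quasi-likelihood test (version 4.0.16, R 4.3.3) with TMM scaling, filterByExpr and Benjamini-Hochberg adjustment over 25588 rows. All 36 libraries shared 1 fit with the culture batch as a block. The SE is the log2 difference over the square root of F, and the 95% interval uses the t distribution. Levels are CPM from TMM-scaled library sizes, not comparable between genes. Batch directions are from log2 CPM with a prior count of 2. The batch numbers come from the labels, and HCA and HCA with selenite 1 libraries of the same batch deviated together, with correlations of 0.101 to 0.366 in 6 of 6 batches (median 0.177), against -0.31 to 0.407 (median -0.0558) for the 30 pairs of different batches. The test was also run on simulated counts with the same spread for all rows, no batch effect and large changes in rows of moderate level. Those counts lacked the unlike ribosomal shares of these libraries, so the run does not show how the test behaves here.

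Genes named were the 12 named rows of lowest p among those past the threshold for HCA in selenite 0.1 cultures, the 10 named rows in each direction of lowest p going that way in at least 5 of 6 batches, and at most 6 members of each list (highest level and lowest p). Of these, 2 are not reported here. Other genes given beside them, and the rows of several genes, were chosen after their values were seen. The members and lists were chosen with earlier results of these data known. Alternatives were no block, the compared groups alone, DESeq2 1.42.0, limma 3.58.1 voom, other scalings and filters, a depth covariate and leaving out batches or libraries. A filter at 1 CPM was chosen after seeing the data.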

Additional observations from a re-analysis of the deposited data

Results flagged for a closer look

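In groups of 6 libraries, the highest or lowest value was examined for its gap to the nearest other library, relative to the whole range (critical value 0.625). Of 72 groups examined, 8 held such a library, and chance flags about 1 in 20 groups. Most concern rows near 0. Among HCA libraries, Acbd4 had 0.0678 CPM in replicate 2, Cntn1 0.484 CPM in replicate 2 and Rdh12 0.0878 CPM in replicate 1, each with the other 5 libraries at 0. Gabpa was at 0 CPM in HCA replicate 5, with the others from 0.459 to 1.35 CPM. With HCA and selenite 1, Rev3l had 0.0223 CPM in replicate 6 (others at most 0.0046), Snx17 0.0491 CPM in replicate 6 and Zfp799 0.302 CPM in replicate 5 (others at 0). Hsd17b12, the fatty acid elongation reductase, had 33.1 CPM in HCA replicate 4, against 25.7 to 28.3 CPM in the other HCA libraries.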

How the results depend on the processing

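The count of 0 rows for HCA with selenite 1 against HCA held without the replicate block (0 rows, 207 at an unadjusted p under 0.05) and under all other settings run except DESeq2, which called 8. Leaving out single batches gave 0 to 0 rows, with 191 to 426 at an unadjusted p under 0.05. For the difference of selenite 1 effects with and without HCA, DESeq2 called 24 rows, limma voom 1 and its form with library weights 2. Leaving out single batches gave 0 to 0 for that difference. For HCA with selenite 0.1 against HCA, DESeq2 called 16, and leaving out single batches gave 0 to 0. Without the replicate block these counts were 0 as well, and the block changed no call. The ribosomal share differed by -23.9 to -1.03 percentage points without single batches, and by -7.84 with annotated types alone. Of 2492 settings over 141 named genes, 1 passed the threshold (Gng7 with DESeq2). Of 420 settings over 21 list medians, 392 stayed within 1 SD of the batch medians, and the largest move was 0.38, for endothelial and mural markers without batch 1. Across the 20 settings the sign of 19 of the 21 medians changed in at least 1 setting, and those of selenoproteins (-0.25 to -0.01) and of heat shock and unfolded protein response genes (0.03 to 0.20) kept it. Intervals were wider for rows under 1 CPM. Counts outside ribosomal rows fell to 8.59 M in the 12 libraries compared and to 4.92 M over all 36 libraries of the fit. Depth and spread between batches were not separated.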
